A study of Homo sapiens with 48 samples.

Results

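Mesoderm and endoderm cultures directed from the same embryonic stem cell line were compared: 8 of the 48 libraries in the series, 4 from each culture, taken by their sample labels. All came from WA09, the widely used established line of human embryonic stem cells that is also named H9, with a genotype given as normal. The mesoderm cultures were kept in STEMdiff Mesoderm Induction Medium and the endoderm cultures in the STEMdiff Definitive Endoderm Kit, each for 5 days; the composition of these commercial media is not given in the sources used here. References came from the same line: 4 libraries of untreated stem cells, called hESC here, and 4 of ectoderm cultures kept for 6 days in E6 medium with 2 inhibitors, 100 nM LDN-193189 together with 2 µM A83-01. The labels do not say whether the 4 libraries of a group came from separate cultures, so the p-values measure the spread between these libraries, which may be technical.

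RNA was measured by RASL-Seq, which joins neighbouring DNA probe pairs on messenger RNA bound through its poly(A) tail and counts the joined products by sequencing after PCR. There were 1113 probes covering 452 genes, and the reads of a gene's probes were summed. Totals were 2358531 to 3482191 reads in the mesoderm libraries, 2982467 to 4227384 in the endoderm libraries, 1773969 to 2801704 in hESC and 2283016 to 3334662 in ectoderm. Levels are given as counts per 1000000 reads (CPM) after scaling by trimmed mean of M values (TMM). Because probes differ in efficiency, a level is compared between cultures and never between genes. In bulk lysates fewer cells that express a gene and less RNA per cell cannot be told apart. Intervals of a difference come from the fit and include the spread between libraries. Read floors cover counting error only, since amplified reads without molecular identifiers are not independent molecules.

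In the gastrulating embryo, mesoderm and definitive endoderm both arise from cells of the primitive streak, which transiently express the T-box factors T (TBXT, Brachyury) and EOMES. Strong Nodal or activin signalling favours endoderm, marked by SOX17, GATA6 and FOXA2, whereas BMP and WNT signalling favours posterior and lateral mesoderm, marked by factors such as CDX2, HAND1 and MSX1. Nodal signalling also switches on its own secreted inhibitors, the LEFTY proteins.

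The start regions of 3 of the marker genes are shown because these genes define the cultures, whose lineages are known to depend on GATA factors and WNT signalling. Each sequence holds the 250 bases before the gene's start (RefSeq, GRCh38.p14), read 5′ to 3′ on the gene's strand. CDX2 lies on chromosome 13, minus strand, and its stretch is chr13:27969316-27969565. HAND1 lies on chromosome 5, minus strand, and its stretch is chr5:154478228-154478477. GATA6 lies on chromosome 18, plus strand, and its stretch is chr18:22169339-22169588. Capitals mark matches, on either strand, to short words bound by GATA factors and by TCF/LEF, the transcription factors of the WNT pathway. The words searched for GATA were AGATAA, with a final base of G giving AGATAG, and the same pair beginning with T, namely TGATAA together with TGATAG. Those searched for TCF/LEF were CTTTGAA plus its variant CTTTGAT.
CDX2: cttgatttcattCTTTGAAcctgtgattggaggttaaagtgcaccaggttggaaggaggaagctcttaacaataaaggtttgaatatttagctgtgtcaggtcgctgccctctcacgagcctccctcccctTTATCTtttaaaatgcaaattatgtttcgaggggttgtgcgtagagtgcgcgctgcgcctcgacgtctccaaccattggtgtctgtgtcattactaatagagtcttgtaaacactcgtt
HAND1: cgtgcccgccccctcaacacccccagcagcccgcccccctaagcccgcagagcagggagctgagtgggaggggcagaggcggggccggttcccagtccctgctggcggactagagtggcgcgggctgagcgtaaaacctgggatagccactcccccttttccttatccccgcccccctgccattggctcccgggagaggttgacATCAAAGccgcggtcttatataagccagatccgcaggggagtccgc
GATA6: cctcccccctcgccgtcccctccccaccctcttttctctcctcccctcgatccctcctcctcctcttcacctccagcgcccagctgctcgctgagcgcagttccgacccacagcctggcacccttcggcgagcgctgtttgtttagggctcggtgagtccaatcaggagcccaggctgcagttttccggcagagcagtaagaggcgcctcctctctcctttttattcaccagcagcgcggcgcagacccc
The CDX2 stretch held CTTTGAA 238 to 232 bases before the start and, read on the opposite strand, AGATAA 119 to 114 bases before it. The HAND1 stretch held CTTTGAT on the opposite strand, 46 to 40 bases before the start. The GATA6 stretch held none of these words. Of 35116 RefSeq stretches of the same kind, 22.3% held a GATA word and 5.94% a TCF/LEF word, so a match is a description of the letters and not a binding site.

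The 4 defining markers followed the labels. CDX2, a homeobox factor of the posterior primitive streak and its mesoderm, measured 941, 898, 1260 and 818 CPM in the mesoderm libraries and 0, 0.361, 2.35 and 0.295 CPM in the endoderm libraries. The groups did not overlap, and the endoderm values rested on at most 5 reads. Mesoderm exceeded endoderm by 10.50 ± 0.31 on the log2 scale (estimate ± SE; edgeR quasi-likelihood test, Benjamini-Hochberg adjusted p = 2.22e-14). HAND1, a basic helix-loop-helix factor of lateral mesoderm and heart, measured 418, 398, 336 and 383 CPM in mesoderm and 11.5, 8.3, 9.39 and 14.2 CPM in endoderm. Every mesoderm library stood above every endoderm library, and the log2 difference was 5.12 ± 0.15 (adjusted p = 5e-14).

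SOX17, a regulator of definitive endoderm, measured 2390, 2210, 2090 and 2540 CPM in the endoderm libraries and 0, 0, 1.11 and 0 CPM in the mesoderm libraries. With at most 3 reads in any mesoderm library, endoderm was at least 2660-fold higher, taking 3 reads per mesoderm library as the floor. GATA6, a zinc-finger factor of endoderm and heart, measured 3520, 3620, 4010 and 3330 CPM in endoderm and 73, 85.8, 97.3 and 77.1 CPM in mesoderm. Endoderm was the higher group throughout, and mesoderm minus endoderm was -5.45 ± 0.17 on the log2 scale (adjusted p = 1.6e-15).

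None of these 4 genes had more than 1 read in any hESC library. Against hESC, HAND1 was at least 307-fold higher in mesoderm and at least 8.67-fold higher in endoderm. GATA6 was at least 66.6-fold higher than hESC in mesoderm and at least 2900-fold higher in endoderm. SOX17 had at most 3 reads in every hESC and mesoderm library, so no fold is given between those groups. The separate probes had the same directions, with log2 differences of 8.51 to 11.08 over the 3 CDX2 probes, 5.03 and 5.25 for the pair of HAND1 probes and -5.53 to -5.15 over the 3 GATA6 probes.

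**Figure D1:**
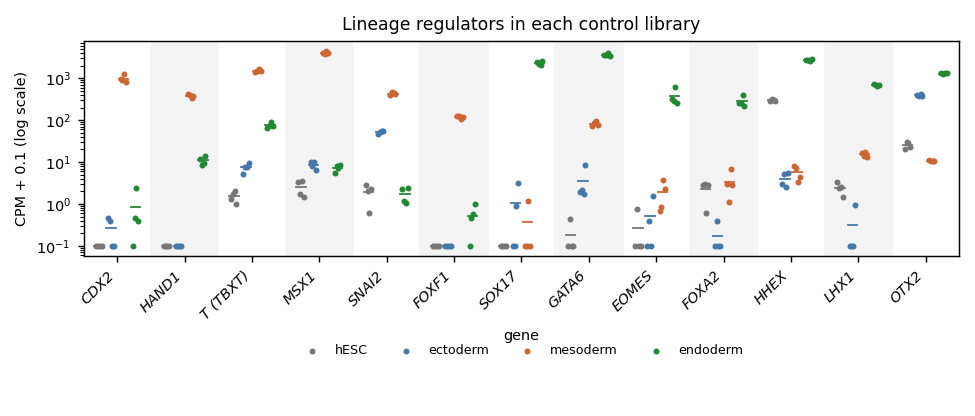
Levels of 13 lineage regulators in each library, one point per library, on a log axis of CPM plus 0.1, with a bar at the mean of the 4 libraries of hESC, ectoderm, mesoderm or endoderm. CDX2, HAND1, T, MSX1, SNAI2 and FOXF1 have all mesoderm points above all endoderm points, and the remaining 7 genes have the opposite order.

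Across the panel the cultures differed for most genes. Of 387 genes tested, 322 (83.2%) differed between mesoderm and endoderm at an adjusted p under 0.05, 157 (40.6%) higher in mesoderm and 165 (42.6%) higher in endoderm. The difference was at least 2-fold for 214 genes (55.3%), of which 102 (26.4%) were higher in mesoderm and 112 (28.9%) higher in endoderm. The difference reached 8-fold or more for 98 genes (25.3%). The median absolute log2 difference over all tested genes was 1.33. Values of the 2 groups did not overlap for 298 genes (77.0%).

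**Figure D2:**
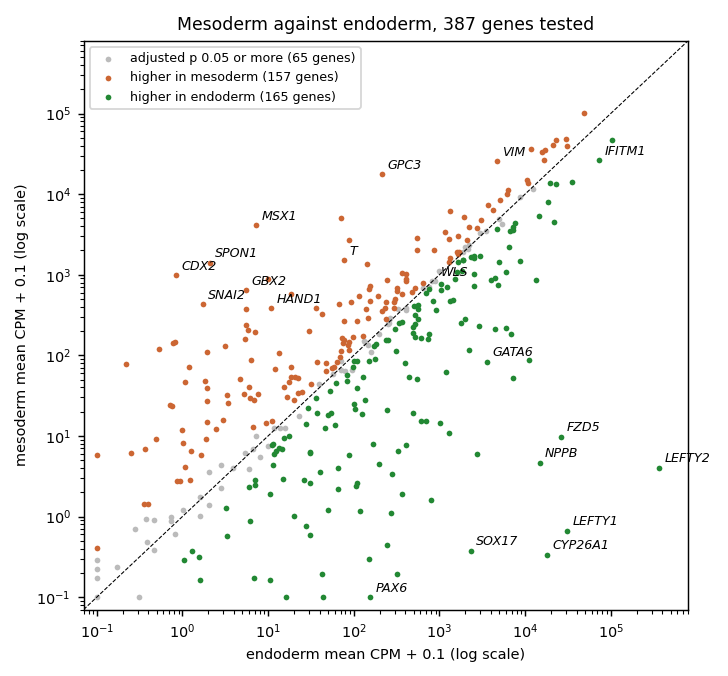
Mean CPM plus 0.1 of each of the 387 tested genes in endoderm (horizontal) and mesoderm (vertical), both on log axes, with the dashed line at equal levels. Orange points are the 157 genes higher in mesoderm, green points the 165 higher in endoderm and grey points the 65 genes at an adjusted p of 0.05 or more. LEFTY2 lies farthest to the right at a mean of 368400 CPM in endoderm against 3.93 in mesoderm.

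Genes highest in mesoderm relative to endoderm included several developmental regulators. MSX1, a homeobox factor induced by BMP, measured 4060, 3800, 4610 and 3990 CPM in mesoderm and 5.39, 7.94, 7.04 and 8.26 CPM in endoderm. MSX1 was also higher in endoderm than its hESC mean of 2.41 CPM, by 1.60 on the log2 scale, and the log2 difference between the cultures was 9.15 ± 0.14. SNAI2, a repressor that drives epithelial to mesenchymal transition, measured 395, 460, 457 and 421 CPM in mesoderm and 2.16, 1.08, 0.939 and 2.36 CPM in endoderm, a log2 difference of 7.95 ± 0.18. FOXF1, a forkhead factor of lateral and visceral mesoderm, measured 124, 126, 106 and 122 CPM in mesoderm. It had at most 3 reads in each endoderm library, so mesoderm was at least 107-fold higher.

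T, the streak factor itself, measured 1430, 1470, 1700 and 1500 CPM in mesoderm and 66.5, 73.6, 89.7 and 74.3 CPM in endoderm. It was thus still above its hESC mean of 1.43 CPM in both cultures, and mesoderm exceeded endoderm by 4.33 ± 0.11 on the log2 scale. EOMES, the other T-box factor of the streak, had the opposite order, with 327, 293, 606 and 254 CPM in endoderm and 0.575, 0.757, 3.71 and 2.21 CPM in mesoderm. Endoderm replicate 3 was the highest of its group, and mesoderm minus endoderm was -7.73 ± 0.44. The 2 streak factors were thus each highest in a different culture.

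MYH6, which encodes a heart muscle myosin, measured 74.1, 84.5, 72.4 and 83.2 CPM in mesoderm and had at most 1 read in any endoderm library, a difference of at least 70.6-fold. Cell surface and matrix genes were in the same group. GPC3, a cell surface heparan sulfate proteoglycan, averaged 17600 ± 679 CPM (SD, n = 4) in mesoderm and 212 CPM in endoderm. PRTG, a cell surface receptor of the immunoglobulin superfamily, averaged 5110 CPM in mesoderm and 70.8 in endoderm, and SPON1, an extracellular matrix protein, averaged 1415 and 2.00 CPM. The log2 differences were 6.38 ± 0.08 for GPC3, 6.18 for PRTG and 9.51 for SPON1. GPC3 and SPON1 had moved both ways from hESC: GPC3 stood at 1419 CPM and SPON1 at 50.9 CPM there, below mesoderm and above endoderm. None of the 3 was particular to mesoderm. The GPC3 probes read 14400 and 23700 CPM in ectoderm, above their 6480 and 10200 CPM in mesoderm. PRTG averaged 2259 CPM in ectoderm, and the SPON1 probes read 70 to 218 CPM there.

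GBX2, a homeobox factor of the mid-hindbrain boundary and posterior embryo, averaged 640 CPM in mesoderm, 5.40 in endoderm and 757 in hESC, so the contrast between the cultures was mainly a low value in endoderm. CD44, a hyaluronan receptor, measured 178, 159, 87.2 and 164 CPM in mesoderm and at most 1.77 CPM in endoderm. CDKN1A, the p21 inhibitor of cyclin-dependent kinases, measured 886, 894, 785 and 955 CPM in mesoderm and 10.1, 10.5, 3.29 and 15.3 CPM in endoderm. Against the hESC mean of 55.8 CPM it was higher in mesoderm and lower in endoderm. GAD1, which encodes a glutamate decarboxylase, averaged 140 CPM in mesoderm and 0.68 in endoderm.

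Of 8 tested mesoderm transcription factors, 5 (CDX2, FOXF1, HAND1, SNAI2 and T) were higher in mesoderm and 3 (EOMES, ISL1 and LHX1) higher in endoderm. Over all tested genes 40.6% were higher in mesoderm and 42.6% in endoderm. The median log2 difference of the 8 was 4.72 against 0 over all tested genes. ISL1 was low in both, at 6.96 CPM in mesoderm and 13.3 in endoderm, and it lost its call with library totals alone and with upper-quartile scaling. Its higher endoderm level came from 1 of its 2 probes, at 12.3 against 2.99 CPM in mesoderm, while the other read 0.411 in endoderm and 3.56 in mesoderm. A further 3 of the 11 on the panel, HAND2, MEF2C and NKX2-5, failed the read filter, with group means of at most 1.22 CPM. A broader list of mesoderm markers had 16 genes on the panel and 7 tested, of which 5 were higher in mesoderm and 2 in endoderm, with a median of 5.12. The 2 that were higher in endoderm were PDGFRA, a growth factor receptor widely used as a mesoderm surface marker, at 45.5 against 12.4 CPM, and IL6ST, a cytokine co-receptor whose order turned with library totals alone and with upper-quartile scaling.

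Endoderm regulators were ordered the other way. HHEX, a homeobox factor of anterior endoderm, measured 2760, 2790, 2550 and 2830 CPM in endoderm and 8.05, 7.32, 3.34 and 4.42 CPM in mesoderm. The hESC mean of 298 CPM lay between the groups, and mesoderm minus endoderm was -8.85 ± 0.15. FOXA2, a forkhead pioneer factor of endoderm, measured 256, 253, 393 and 217 CPM in endoderm and 2.87, 1.01, 6.68 and 2.7 CPM in mesoderm, a log2 difference of -6.49 ± 0.30. LHX1 averaged 689 CPM in endoderm and 15.3 in mesoderm, and FOXA1 averaged 107 and 2.28 CPM. In all 4 genes the groups did not overlap.

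Of 11 endoderm transcription factors, all tested, 9 were higher in endoderm, 1 (NR5A2) was higher in mesoderm and 1 (SOX7, 6.08 in mesoderm and 5.27 CPM in endoderm) did not pass the test. Their median log2 difference was -5.51. The broader endoderm marker list had 20 genes on the panel and 13 tested: 11 were higher in endoderm, CPLX2 was higher in mesoderm and SST did not pass. The median was -7.73. Beside both lists, 42.6% of all tested genes were higher in endoderm and 40.6% in mesoderm. The hepatic gene AFP had no read in any of the 8 libraries.

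The 5 Nodal pathway genes on the panel were all higher in endoderm, beside 42.6% of all tested genes. Their median log2 difference was -9.29, or -8.16 with NODAL at its bound. NODAL, the ligand, measured 243, 262, 241 and 241 CPM in endoderm and 0, 0.505, 0.371 and 0.491 CPM in mesoderm. No mesoderm library had more than 2 NODAL reads, so endoderm was at least 285-fold higher. TDGF1 (CRIPTO), the Nodal co-receptor, measured 7040, 7550, 7480 and 6680 CPM in endoderm and 54.9, 63.8, 40.8 and 52 CPM in mesoderm. Its hESC mean was 2156 CPM, so it was higher than hESC in endoderm and lower in mesoderm. GDF3, a further ligand of the family, averaged 49.5 CPM in endoderm and 1.10 in mesoderm, both under its hESC mean of 257 CPM.

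LEFTY2, a secreted inhibitor of Nodal, took the largest share of any gene in endoderm, at 26.9%, 27.9%, 30.2% and 26.2% of all reads of the 4 libraries. In scaled units this was 350000, 373000, 423000 and 327000 CPM, which exceeds the share because the TMM factors of the endoderm libraries were 0.714 to 0.802 and those of the mesoderm libraries 1.14 to 1.18. The mesoderm libraries had 3, 6, 34 and 3 LEFTY2 reads. Mesoderm minus endoderm was -16.74 ± 1.59 on the log2 scale, and -18.37 without mesoderm replicate 3. LEFTY1 averaged 31010 CPM in endoderm and 0.56 in mesoderm. LEFTY1 and LEFTY2 are neighbouring and nearly identical genes on chromosome 1, so reads could have been exchanged between them and their separate values are uncertain.

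Removing both LEFTY genes from the library totals and scaling by what remained gave 324 genes that differed, 167 higher in mesoderm and 157 in endoderm. Scaling by library totals alone, which lets LEFTY2 weigh on every other gene, gave 206 and 112, and upper-quartile scaling gave 200 and 119. These scalings moved the median log2 difference of all genes by 0.60 and 0.54, and sizes below that take their sign from the scaling. Among the called genes named so far, IL6ST was the exception that changed sign under some of the 5 other scalings tried.

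**Figure D3:**
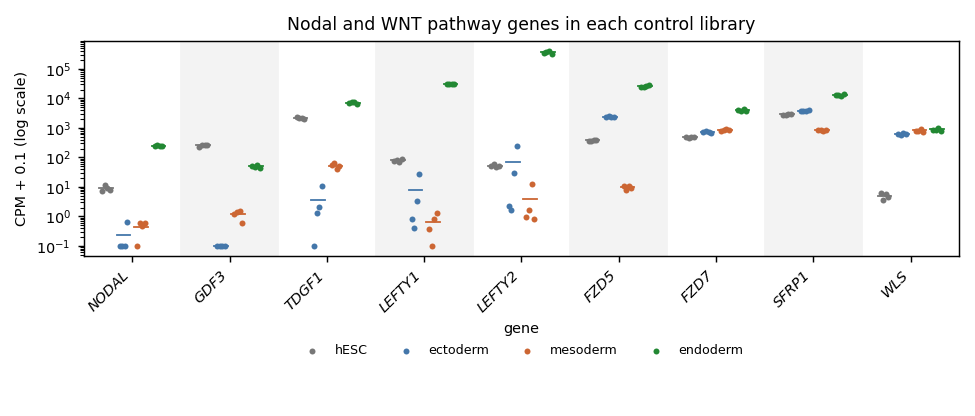
Levels of 5 Nodal pathway genes (NODAL, GDF3, TDGF1, LEFTY1, LEFTY2) and 4 genes linked to WNT signalling (FZD5, FZD7, SFRP1, WLS) in each library, one point per library on a log axis of CPM plus 0.1, bars at group means. The endoderm points lie above the mesoderm points for every gene except WLS, where they interleave between 752 and 977 CPM.

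BMP, WNT and retinoid genes were few on the panel, where 40.6% of tested genes were higher in mesoderm and 42.6% in endoderm. All 3 BMP-linked genes were higher in mesoderm: MSX1 as above, ID1 at 30.2 against 16.5 CPM and SMAD1 at 34.9 against 24.6 CPM. The SMAD1 values of the groups overlapped, and 1 of its probes, at 11.2 against 9.67 CPM, was not called. SMAD1 lost its call when libraries were scaled by 3 reference genes or by DESeq2 median-ratio size factors. Of the 4 tested WNT genes, the receptors FZD5 and FZD7 and the secreted antagonist SFRP1 were higher in endoderm. The receptor FZD3 was higher in mesoderm, at 44.6 against 31.4 CPM, a call that was also lost with reference genes. Its group values overlapped, and only 1 of its 3 probes, at 26.4 against 17.5 CPM, was called. FZD5 measured 25400, 24600, 25600 and 29700 CPM in endoderm and 10.6, 8.07, 10.8 and 9.33 CPM in mesoderm. The groups were separated by -11.42 ± 0.11 on the log2 scale, with the hESC mean of 376 CPM between them. CYP26A1, which degrades retinoic acid, measured 18600, 18900, 17700 and 17700 CPM in endoderm and had at most 2 reads in any mesoderm library, at least a 21000-fold difference.

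NPPB, which encodes brain natriuretic peptide, measured 15100, 14200, 13300 and 16500 CPM in endoderm and 4.6, 5.55, 2.23 and 5.89 CPM in mesoderm. It had no read in hESC, and the cultures differed by -11.59 ± 0.44. A single probe read this gene. T and NPPB are both on a list of mesendoderm markers, with GDF3 and NR5A2. Of these 4 tested genes, T and NR5A2 were higher in mesoderm and GDF3 and NPPB in endoderm, beside 40.6% and 42.6% of tested genes.

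Genes best known from the nervous system differed in both directions. PAX6, a paired-box factor of forebrain and eye, measured 141, 171, 154 and 151 CPM in endoderm and had no read in mesoderm, at least a 178-fold difference. LMX1A, a LIM-homeobox factor of roof plate and midbrain, averaged 322 CPM in endoderm, at least 372-fold above mesoderm. SIX3, a homeobox factor of anterior forebrain, averaged 152 CPM in endoderm and was at least 175-fold higher. NKX2-1, a homeobox factor of forebrain, thyroid and lung, averaged 43.2 CPM in endoderm, at least 49.9-fold above mesoderm and with no read in the ectoderm libraries. OTX2, a homeobox factor of the anterior embryo, measured 1310, 1240, 1330 and 1320 CPM in endoderm and 10.4 to 10.9 CPM in mesoderm. SHISA2, a membrane protein that limits WNT and FGF receptors, averaged 792 CPM in endoderm and 1.52 in mesoderm. Several of these genes were not particular to endoderm. In ectoderm PAX6 averaged 837 CPM, SIX3 273, OTX2 395 and LMX1A 139, and the SHISA2 probes read 84.5 and 443 CPM. SIX3 and OTX2 also averaged 42.6 and 25.5 CPM in hESC, above their mesoderm levels.

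The neural progenitor factors SOX1 and SOX2 were low in endoderm. SOX1 had no read in the endoderm libraries and SOX2 averaged 5.87 CPM, against 185 and 5920 CPM in ectoderm. TUBB3, a neuronal tubulin, was higher in endoderm, at 2559 CPM in endoderm, 727 in mesoderm and 113 in ectoderm. Higher in mesoderm were NES, a filament protein of neural progenitors, at 2054 against 553 CPM, and NCAM1, a neural adhesion molecule, at 458 against 93.1 CPM. So were the regulators ZIC1 at 71.7 against 18.2 CPM, OLIG2 at 29.4 against 6.04 CPM and PAX3 at 9.16 against 0.39 CPM. The part of other cells in these levels was not tested.

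Markers of other cell types differed in level from list to list. Of the 5 blood and endothelial genes on the panel, only KDR passed the read filter, at 54.0 CPM in endoderm and 19.2 in mesoderm. Summed over the list the level was 48.7 to 58.2 CPM in endoderm, 13 to 24.2 in mesoderm and 213 to 227 in hESC. CDH5, PECAM1, PLVAP and PTPRC had group means of at most 0.505 CPM in both cultures. The trophoblast and amnion list held CDX2, ISL1, KRT18 and TP63 on the panel. CDX2, as given above, averaged 978 CPM in mesoderm and 0.751 in endoderm. ISL1 averaged 0.206 CPM in hESC, 6.96 in mesoderm and 13.3 in endoderm. TP63, read by a single probe, had no read in any of the 16 libraries, so it gave no measure of such cells. KRT18, a simple-epithelium keratin, averaged 4931 CPM in endoderm and 1420 in mesoderm. The hepatic and gut list held AFP, ALB, CYP2B6 and SST besides CDX2, and none of those 4 was called. CYP2B6, a cytochrome, averaged 148 CPM in mesoderm and 136 in endoderm, and ALB and SST averaged under 4 CPM in both. The CYP2B6 level came almost wholly from 1 of its 3 probes, at 139 CPM in mesoderm and 126 in endoderm. The others read 25.9 and 29.2 CPM in hESC but at most 1.49 CPM in either culture. Of these, 1 was called higher in endoderm, at 1.49 against 0.152 CPM in mesoderm.

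Adhesion genes were called in both directions: of 11 tested, 6 were higher in mesoderm and 5 in endoderm, beside 40.6% and 42.6% of all tested genes. EPCAM, an epithelial adhesion molecule, measured 6860, 6970, 6770 and 6860 CPM in endoderm and 182, 187, 171 and 199 CPM in mesoderm. Relative to the hESC mean of 2262 CPM it was higher in endoderm and lower in mesoderm. VIM, the intermediate filament of mesenchyme, measured 24400, 25800, 27700 and 24700 CPM in mesoderm and 4490, 4980, 4890 and 4310 CPM in endoderm, both far above the hESC mean of 279 CPM. CDH2, or N-cadherin, a usual mark of epithelial to mesenchymal transition, was higher in endoderm, at 7306 ± 745 CPM against 3555 ± 124 (SD, n = 4). TAGLN, an actin-binding protein of smooth muscle, also was, at 21740 against 4498 CPM.

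Shared change was counted as an adjusted p under 0.05 and at least a 2-fold difference from hESC in the same direction in both cultures. The comparisons use the same 4 hESC libraries, so the count is a description. Mesoderm differed from hESC for 316 genes (81.7%), 153 higher (39.5%) and 163 lower (42.1%). Endoderm differed from hESC for 331 (85.5%), 180 higher (46.5%) and 151 lower (39.0%). Of 387 genes, 119 (30.7%) were shared, 63 (16.3%) higher and 56 (14.5%) lower than hESC, while 39 (10.1%) went opposite ways. With scaling by reference genes the shared count was 105 higher and 46 lower. Those genes, ACTB, GAPDH and PGK1, themselves differed with TMM scaling. ACTB averaged 63910 CPM in hESC, 46940 in mesoderm and 102300 in endoderm. GAPDH averaged 94580, 48700 and 30040 CPM in the same order, and PGK1 4266, 2988 and 1636 CPM. All 3 were called between the cultures, so this scaling is not neutral.

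Of the 63 genes raised in both cultures, 32 were higher in endoderm than in mesoderm, 20 higher in mesoderm and 11 were not called between them. Over all tested genes 83.2% were called, so this share is near the background. For 24 of the 63 the 95% interval of the difference between the cultures lay within 2-fold either way with TMM scaling. WLS, which carries WNT ligands to the cell surface, had the smallest difference between the cultures among the 8 shared rises named by size. It measured 5.97, 3.62, 5.43 and 4.45 CPM in hESC, 791, 814, 953 and 752 CPM in mesoderm and 877, 878, 977 and 813 CPM in endoderm. The rises were 7.42 ± 0.14 and 7.52 ± 0.14 on the log2 scale. Mesoderm minus endoderm was -0.10, with a 95% interval of -0.27 to 0.07 (adjusted p = 0.265). Its 3 probes did not all give this: 1 was higher in endoderm, at 240 against 150 CPM (log2 difference -0.68, adjusted p = 2.21e-05), and the other 2 were not called.

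GATA6, T and VIM were also raised in both cultures, as given above. HAND1, NPPB and DIO3 had larger shared rises than some of these 8, but a mean under 50 reads in one of the cultures. BTG2, an antiproliferative factor, stood at 29.8 CPM in hESC, 701 in mesoderm and 1214 in endoderm. DACH1, a transcriptional corepressor, stood at 1.21, 45.8 and 61.2 CPM, and HES4, a Notch-linked repressor, at 5.51, 85.2 and 150 CPM in the same order. IL6ST stood at 3.24, 36.3 and 52.2 CPM. For DACH1 and IL6ST the order of the 2 cultures reversed with upper-quartile scaling and with library totals alone, while the rise from hESC did not.

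Several shared rises were not particular to the 2 cultures. The mean of both differed from ectoderm for 350 genes (90.4%), 171 higher (44.2%) and 179 lower (46.3%). Of the 63 raised genes, 37 were also higher than in ectoderm, 25 were lower than in ectoderm and 1 was not called. WLS stood at 616 CPM in ectoderm and BTG2 at 646 CPM. DACH1 and HES4 stood higher in ectoderm than in either culture, at 619 and 897 CPM, whereas GATA6 and T averaged 3.51 and 7.41 CPM there.

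**Figure D4:**
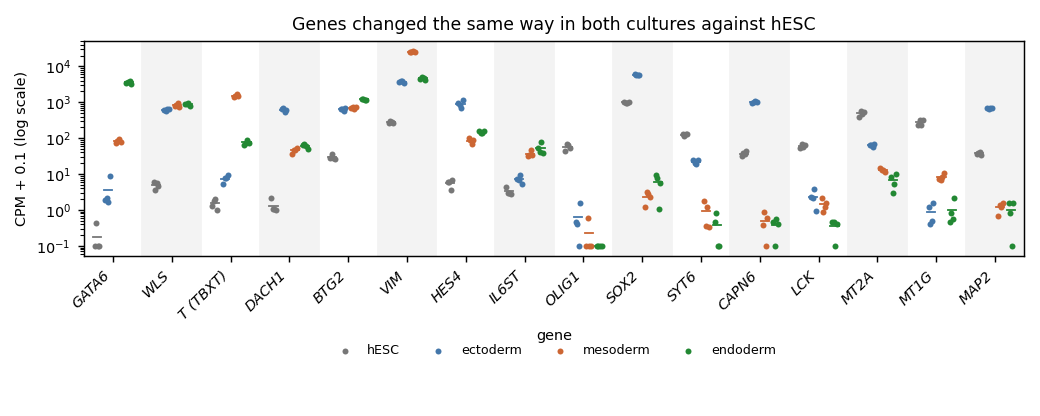
The 8 genes with the largest shared rise among those with a mean of at least 50 reads in both cultures (left) and the 8 with the largest shared fall among those with at least 50 in hESC (right), one point per library on a log axis of CPM plus 0.1, bars at group means. WLS has mesoderm and endoderm points together near 800 to 900 CPM, while T and GATA6 have both cultures above hESC but apart from each other. SOX2 is near the floor in both cultures and at 5920 CPM on average in ectoderm.

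Of the 56 genes lower than hESC in both cultures, 26 were higher in mesoderm than in endoderm, 14 higher in endoderm and 16 were not called between them. Over all tested genes 83.2% were called, 40.6% higher in mesoderm and 42.6% higher in endoderm. SOX2, a core factor of pluripotency and of neural progenitors, measured 1030, 982, 948 and 1010 CPM in hESC. It measured 1.15, 3.03, 2.6 and 2.21 CPM in mesoderm and 9.34, 7.58, 0.939 and 5.61 CPM in endoderm. The falls were -8.76 ± 0.21 and -7.33 ± 0.19 on the log2 scale. Of the 56, 34 were also lower than in ectoderm, 15 were higher than in ectoderm and 7 were not called. Over all tested genes 90.4% were called against ectoderm, so the called share is near the background.

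The other large shared falls were of genes with varied functions. SYT6, a synaptotagmin, fell from 125 CPM in hESC to 0.83 in mesoderm and 0.27 in endoderm. OLIG1, a factor of the oligodendrocyte lineage, fell from 57.7 CPM to at most 3 reads in every library of both cultures, at least 66.5-fold in mesoderm and at least 51.8-fold in endoderm. MAP2, a neuronal microtubule protein, fell from 37.6 CPM to 1.11 and 0.91, and CAPN6, a calpain family member, from 37.3 to 0.38 and 0.28. LCK, a tyrosine kinase of lymphocytes, fell from 62.3 CPM to 1.34 and 0.25. The metallothioneins MT2A and MT1G, which bind metal ions, fell from 491 CPM to 12.9 and 6.59 and from 276 CPM to 8.12 and 0.90. Metallothioneins are close paralogs, so how reads divide among them is uncertain.

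Pluripotency genes fell unevenly. Against hESC, 13 of the 15 tested were lower in mesoderm and 2 (LIN28B and SALL4) higher, and 12 were lower in endoderm and 3 (LIN28A, SALL4 and TDGF1) higher. Over all tested genes 42.1% were lower in mesoderm and 39.0% lower in endoderm. NANOG, a core pluripotency factor, measured 1720, 1880, 1770 and 1540 CPM in hESC, 4.88, 3.28, 4.45 and 3.19 CPM in mesoderm and 57.1, 69.6, 53.5 and 77.9 CPM in endoderm. Both cultures were far below hESC, and endoderm was above mesoderm, with a log2 difference between the cultures of -4.05 ± 0.18. L1TD1, an RNA-binding protein of stem cells, averaged 3184 CPM in hESC, 2882 in endoderm and 228 in mesoderm, and its small difference between endoderm and hESC changed sign with reference genes. DNMT3B, a DNA methyltransferase, averaged 3096, 556 and 423 CPM in that order, and DPPA4 averaged 2971, 500 and 409 CPM.

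Between the cultures, 10 of these 15 genes were higher in endoderm and 4 in mesoderm, beside 42.6% and 40.6% of all tested genes. The remaining 1 did not pass, and the median log2 difference of the 15 was -0.47. The 4 were DPPA2, LECT1 (CNMD), LIN28B and ZFP42. With library totals alone the counts were 6 and 6, and DNMT3B, DPPA4 and SALL4 changed sign. LIN28A and LIN28B, paralogs that block maturation of let-7 microRNAs, went opposite ways: LIN28A averaged 6557 CPM in endoderm and 2238 in mesoderm, and LIN28B 409 and 1019. TDGF1 and GDF3 belong to this list as well as to the Nodal genes. POU5F1 read only 7.51 CPM in hESC and had at most 1 read in either culture, so it gave no measure of their difference.

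**Figure D5:**
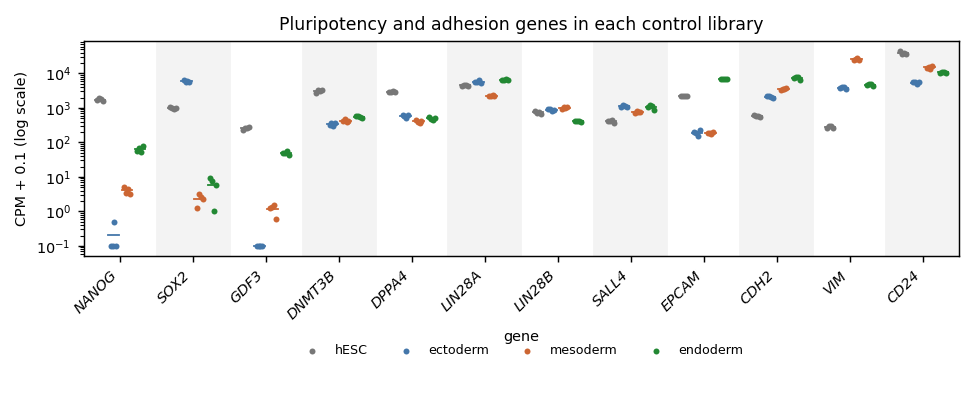
Pluripotency genes and the adhesion genes EPCAM, CDH2, VIM and CD24 in each library, one point per library on a log axis of CPM plus 0.1, bars at group means. NANOG falls from near 1700 CPM in hESC to 3.19 to 4.88 in mesoderm and 53.5 to 77.9 in endoderm, while EPCAM is above hESC in endoderm and below it in mesoderm.

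With TMM scaling, the difference between the 2 cultures was small for part of the panel. For 124 of 387 genes (32.0%) the 95% interval of the difference lay within 2-fold either way. These intervals leave out the choice of scaling, which moved the median log2 difference by up to 0.60. The narrowest intervals among genes called the same way against hESC in both cultures belonged to UGP2, ODC1, EIF5A, H2AFZ and C1QBP. All of these but H2AFZ were still called different between the cultures, UGP2 higher in endoderm (an order that turned with library totals alone and upper-quartile scaling) and the other 3 higher in mesoderm. UGP2, which makes UDP-glucose, averaged 2472 CPM in hESC, 670 ± 7.67 in mesoderm and 755 ± 17.7 in endoderm (SD, n = 4). ODC1, the first enzyme of polyamine synthesis, rose from 770 CPM in hESC to 3843 in mesoderm and 2762 in endoderm. EIF5A, a translation factor, averaged 17770, 10160 and 6110 CPM, and C1QBP, a mitochondrial protein, 4809, 3963 and 2199 CPM. H2AFZ, a histone variant with close paralogs, averaged 17870, 11570 and 12450 CPM, and its log2 difference between the cultures was -0.11 with an interval of -0.23 to 0.02. SPRY2, an inhibitor of FGF signalling, averaged 2314 CPM in mesoderm and 2191 in endoderm (interval -0.06 to 0.22). It was called higher in mesoderm with upper-quartile scaling, with library totals alone and with totals without LEFTY1 and LEFTY2. DUSP6, a phosphatase induced by the same pathway, was higher in mesoderm, at 134 against 86.3 CPM, and both were under its hESC mean of 868 CPM.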

How the data were processed

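RNA was measured by RASL-Seq in 48 libraries of WA09 cells, of which 16 (mesoderm, endoderm, hESC and ectoderm, 4 each) were fitted here. The deposited values are raw counts of reads per probe pair, made by the authors with a custom aligner, per the series' design text and the file headers. The submitters' processing notes name hg38 and DESeq2 without a role; the aligner's version is not given in the sources used here. A merged table repeated the counts, and another 16 columns, which no label identifies, were left out. Of the 452 gene symbols, 442 matched the current gene table and 10 were matched by transcript.

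Probe counts were summed per gene, filtered with filterByExpr and scaled by TMM. Tests were the quasi-likelihood tests (robust fit) of edgeR 4.0.16 in R 4.3.3, two-sided, with Benjamini-Hochberg adjustment over all 387 tested genes and a threshold of 0.05. If no library of a group exceeded 3 reads, a fold is a lower bound against 3 reads per library. Named were the 4 markers, the 12 largest differences each way, the 8 largest shared changes each way, the 5 narrowest intervals, each averaging 50 reads or more where it was higher (for shared rises and intervals, in both cultures), and listed lineage, pathway and cell type genes. These members and lists were chosen with earlier results of these data known, and the list medians support nothing beyond description. Replicate numbers were not taken as pairs, since the correlations of same-numbered mesoderm and endoderm libraries were 0.08, 0.16, 0.30 and 0.06. No libraries of either culture agreed within counting noise (chi-square per degree of freedom at least 7.02). Mesoderm replicate 3 stood farthest from its group, at 89.7, 103 and 120 against replicates 1, 2 and 4. In endoderm the largest value was 110, between replicates 3 and 4. The cause of these gaps was not tested. On simulated counts of 387 genes with 200 changed, 97.5% were called (95.3% of those changed 2-fold) and 2.02% of calls were false. How far these rates hold for the measured counts was not tested. There 322 of 387 genes were called, 98 differed by 8-fold or more and LEFTY2 took 26.2% to 30.2% of endoderm reads. Alternatives were other scalings, filters, DESeq2 1.42.0, a replicate block, other sets of libraries, single probes and each library left out. 1 gene and the summary of the neural gene list that depends on it are not reported here. Promoter sequences came from RefSeq, and figures from matplotlib 3.10.9.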

Additional observations from a re-analysis of the deposited data

Results flagged for a closer look

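In 81 checks of the named genes, library totals and top-gene shares, 6 groups of 4 libraries (7.41%) had a library whose gap to the rest was large for the group's range, where chance gives about 5%. LEFTY2 in mesoderm replicate 3 was 12.6 CPM, against 0.736 to 1.51 CPM in the other mesoderm libraries. CDX2 in endoderm replicate 3 was 2.35 CPM, against 0 to 0.361 CPM. NODAL in endoderm replicate 2 was 262 CPM, against 241 to 243 CPM. PRTG in mesoderm replicate 1 was 4360 CPM, against 5310 to 5440 CPM. GPC3 in mesoderm replicate 4 was 18600 CPM, against 17200 to 17300 CPM. H2AFZ in mesoderm replicate 1 was 12000 CPM, against 11400 to 11500 CPM. The cause was not tested.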

How the results depend on the processing

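The count of genes that differed between mesoderm and endoderm was 315 to 326 when each library was left out in turn, the shared count 116 to 122 and the count for the mean of both against ectoderm 341 to 355. Requiring 10 or more reads in each library left 247 genes and gave 208, 54 and 214. Fewer genes were tested, but the shared count also fell as a share of tested genes, from the 30.7% given above. This filter drops shared changes with under 10 reads in some library, such as GATA6, HAND1, OLIG1 and SOX2. Fitting all 48 libraries gave 272 genes that differed. With reference genes (ACTB, GAPDH and PGK1), which themselves differed between the cultures, 108 genes were higher and 220 lower than ectoderm. The 26 markers and largest differences kept direction and call in all 523 alternative values, and the 16 largest shared changes in all 774 against hESC. These genes were chosen for large differences in the same libraries, so little else could result, and smaller differences are not covered. Mesoderm minus endoderm turned positive with upper-quartile scaling and with library totals alone for WLS (0.46 and 0.52), DACH1 (0.14 and 0.21), IL6ST (0.037 and 0.11), UGP2 (0.39 and 0.44) and H2AFZ (0.45 and 0.51). With reference genes the difference from hESC turned positive for H2AFZ in mesoderm (0.03) and endoderm (0.27) and for C1QBP in mesoderm (0.37). The cause was not tested. A replicate block gave 331, 120 and 349 genes; mesoderm replicates 1, 2 and 3 correlated best with their own number in endoderm and replicate 4 with replicate 1, and the same-number correlations of 0.082 and 0.055 for replicates 1 and 4 were too low to use the numbers as pairs. Scaling limits every difference under about 0.60 on the log2 scale, and reads limit genes at the floor of 3 reads. Scaling without LEFTY1 and LEFTY2 was chosen after seeing the data.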

Other observations

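Beyond the genes described above, 4 metallothioneins on the panel were singled out after their values were seen. MT1F, MT1G, MT1X and MT2A were all lower than hESC in both cultures and lower in endoderm than in mesoderm. MT1X averaged 1205 CPM in hESC, 159 in mesoderm and 5.29 in endoderm, and MT1F 930, 40.1 and 5.90 CPM. Reads may be shared among these paralogs.

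The 39 genes that moved opposite ways from hESC included regulators of adhesion and growth, also chosen after their values were seen. PODXL, a sialomucin of the cell surface, averaged 1822 CPM in hESC, 4409 in endoderm and 213 in mesoderm. CPE, a carboxypeptidase that processes peptide hormones, averaged 231, 11100 and 88.4 CPM in the same order. DLL1, a Notch ligand of presomitic mesoderm, averaged 105 CPM in hESC, 18.2 in endoderm and 576 in mesoderm. FAS, a death receptor, averaged 2.64 CPM in hESC and 24.3 in mesoderm and had at most 3 reads in any endoderm library, at least 21.8-fold lower than mesoderm.

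Of 322 genes with several tested probes, 286 had probes of the same sign between the cultures, and 2 had probes called in opposite directions. Of the 3 TMSB15A probes, 2 averaged 1480 and 1030 CPM in mesoderm against 868 and 618 in endoderm, while the third averaged 843 against 4880 CPM. BBS9 had 1 probe at 58.4 CPM in mesoderm and 79.3 in endoderm and another at 262 and 43.8 CPM. These probes name different positions or transcripts, and which of them tracks the gene was not tested.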
